A study of Homo sapiens with 54 samples.

Results

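The comparison described here sets macrophages labelled as with fetal bovine serum (FBS) against macrophages without that label, both on the porous three-dimensional culture and both at day 23. It rests on 6 bulk RNA libraries, 3 labelled as with FBS and 3 without, out of 54 samples in the series and 32 bulk RNA samples. The members were the libraries whose labels name day 23 of the three-dimensional protocol, with or without FBS in the title, and genes were kept when their mean over the 6 libraries was at least 1 TPM, a measure of transcript abundance per length in which each library adds up to the same total. All 6 libraries carry the labels H1, a human embryonic stem cell line, macrophage as cell type, and the three-dimensional protocol, so both groups share the line, the scaffold and the age in culture. No genetic change is named for either group. Neither the dose of FBS nor the day of its addition is stated, and nothing says that the replicates came from separate cultures, so p-values measure only the spread between these libraries. Further libraries of days 16 and 19, 3 with FBS and 3 without at each day, served for the comparison of the FBS effect between days.

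Macrophages are phagocytes that clear dying cells, lipoproteins, iron and microbes, and those that settle in tissues before birth carry a gene set (folate, mannose and hyaluronan receptors, complement C1q, factor XIII) that sets them apart from blood monocytes. Serum brings cells lipoprotein cholesterol, growth factors, attachment factors, hormones and immunoglobulins. Cells that take up cholesterol switch down the genes of sterol synthesis through the SREBP transcription factors and switch up genes of cholesterol export through the LXR receptors. Serum is also the classical trigger of immediate early genes, which serum response factor and its partners turn on within minutes to hours.

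The values are TPM, which share a fixed total, so a gene's TPM can shift when other genes change. Within a group the libraries correlated at 0.901 to 0.921 (Pearson r across genes on log2(TPM + 1)), and between groups at 0.833 to 0.848. The FBS libraries held 12171 to 12634 genes at 1 TPM or more, and the libraries without FBS 11862 to 11953. Mitochondrially encoded genes took 7.57% to 8.79% of TPM with FBS and 4.24% to 4.96% without, and cytosolic ribosomal protein genes took 5.57% to 5.88% with FBS and 11.1% to 12.0% without. A larger share, 15.7% to 20.1% with FBS and 15.5% to 20.7% without, lay in 3 entries with clone names (FP236383.2, FP236383.3 and FP671120.3). The 14 core macrophage markers were all measured, with summed levels of 18010 to 20300 TPM with FBS and 11460 to 11680 TPM without; 8 of them rose and 1 fell. None of the 10 housekeeping genes checked was at 0 in any library.

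With FBS, 1446 genes rose and 930 fell among 12886 genes tested, by limma on log2(TPM + 1) with the Benjamini-Hochberg adjusted p under 0.05. This means that 11.2% of all genes tested were called higher and 7.22% lower, and these shares are the background for every gene group that follows. The median change over all genes tested was 0.17 on the log2 scale. When libraries were scaled to their median ratio, that median was 0.0049 and the split became 1017 genes higher and 1218 lower (45.5% of calls higher, against 60.9% as deposited). When 1 library was left out, the calls fell to between 781 and 1079 higher and 647 and 734 lower; the counts were 884 higher and 704 lower without FBS replicate 2, and 781 and 647 without FBS replicate 3. FBS and no-FBS libraries did not overlap in 4696 of the 12886 genes tested. The 15 largest increases and 15 largest decreases named below were required not to overlap, so their lack of overlap was set by that choice. Because the RNA is from bulk cells, fewer cells of a type and less RNA per cell cannot be told apart in any of these values.

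**Figure D1:**
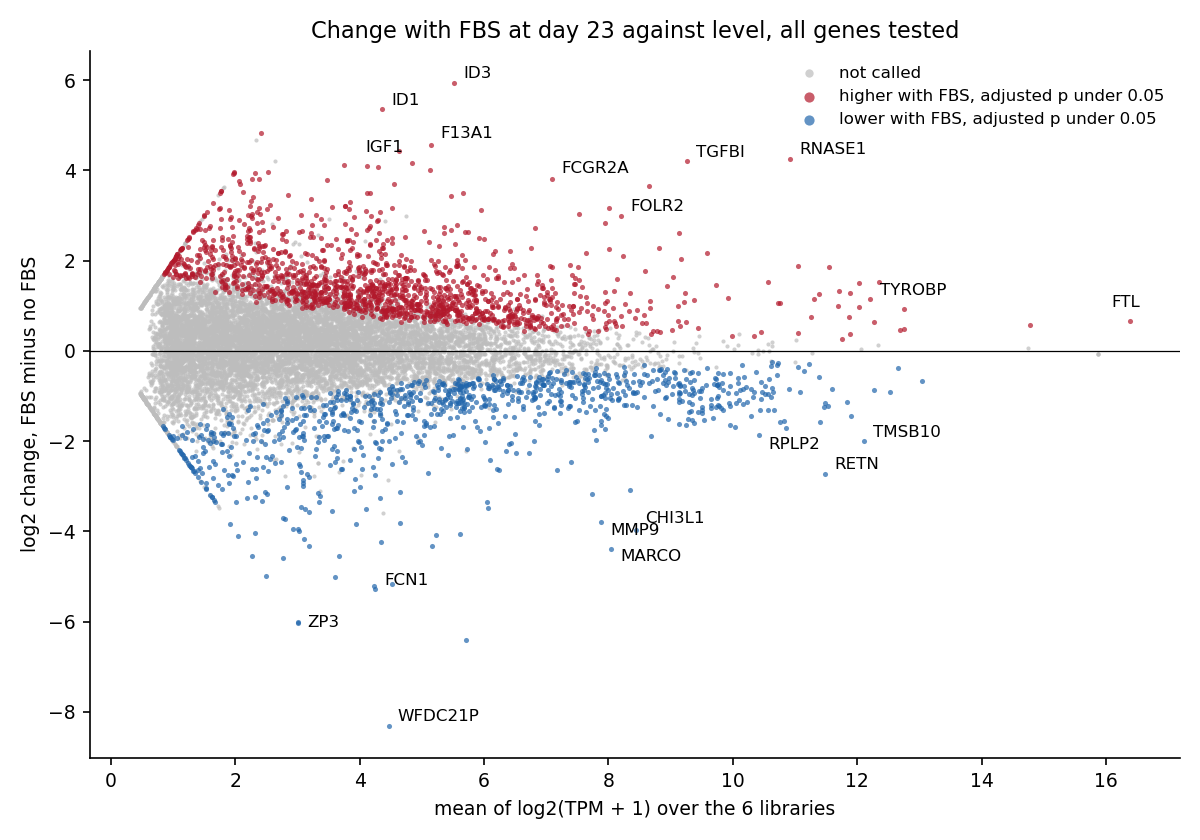
Each point is a gene tested at day 23, with its mean of log2(TPM + 1) over the 6 libraries on the x axis and its log2 change (FBS minus no FBS) on the y axis. The 1446 genes called higher and the 930 called lower are coloured; ID3 and ID1 lie at the top, WFDC21P and ZP3 at the bottom, and RNASE1, TGFBI, RETN and TMSB10 changed at high levels.

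The largest increase was in ID3, which encodes a helix-loop-helix protein that binds other transcription factors and keeps them off DNA. ID3 (chromosome 1, 23557926 to 23559501, RefSeq GRCh38.p14) stood at 343, 331 and 401 TPM in the FBS libraries, against 3.98, 2.93 and 9.11 TPM in the libraries without FBS. Every FBS library lay far above every library without it, and the log2 change was 5.94 ± 0.33 (SE; adjusted p = 1.40e-05). Its relative ID1 had 127, 128 and 135 TPM with FBS and 0.53, 3.11 and 4.26 TPM without, a change of 5.35 ± 0.42 (adjusted p = 7.22e-05). Another member of the family, ID2, rose less, with 159, 225 and 183 TPM with FBS and 68.2, 97.5 and 80.8 TPM without. All 3 genes are known in other cells as targets of BMP and TGF-beta signals, and in each of them the groups did not overlap. At days 16 and 19, however, ID2 was lower with FBS, whereas ID3 and ID1 were higher. ID2 had 171, 205 and 152 TPM with FBS and 282, 223 and 367 TPM without at day 16.

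RNASE1, a secreted ribonuclease (chromosome 14, 20801228 to 20802844), had 8184, 8893 and 8267 TPM with FBS, against 473, 434 and 416 TPM without. TGFBI, an extracellular matrix protein named for its induction by TGF-beta (chromosome 5, 136028988 to 136063818), had 2546, 2530 and 2835 TPM with FBS, against 156, 150 and 121 TPM without. F13A1, the catalytic subunit of clotting factor XIII (chromosome 6, 6144084 to 6320662), had 160, 190 and 163 TPM with FBS, against 4.77, 6.58 and 7.74 TPM without. In all 3 genes the replicates of a group lay close together and the groups were far apart, with log2 changes of 4.26 ± 0.07, 4.21 ± 0.12 and 4.56 ± 0.22 for RNASE1, TGFBI and F13A1 (adjusted p of 2.01e-08, 6.41e-07 and 6.38e-06). THBS1, the matrix protein thrombospondin 1, had 141, 99.9 and 126 TPM with FBS and 7.04, 1.84 and 12.5 TPM without. IGF1, an insulin-like growth factor, had 69.0, 80.9 and 89.6 TPM with FBS and 7.45, 6.33 and 0.77 TPM without. Others among the 15 largest increases were CREM, a transcription factor of the cyclic AMP response, CTTNBP2, CABLES1, CD300H, TMEM150B, FAM156B and NECAB2. FAM156B has a near-identical copy and was, like NECAB2, listed at 0 in all 3 libraries without FBS, so no fold is given for either.

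**Figure D2:**
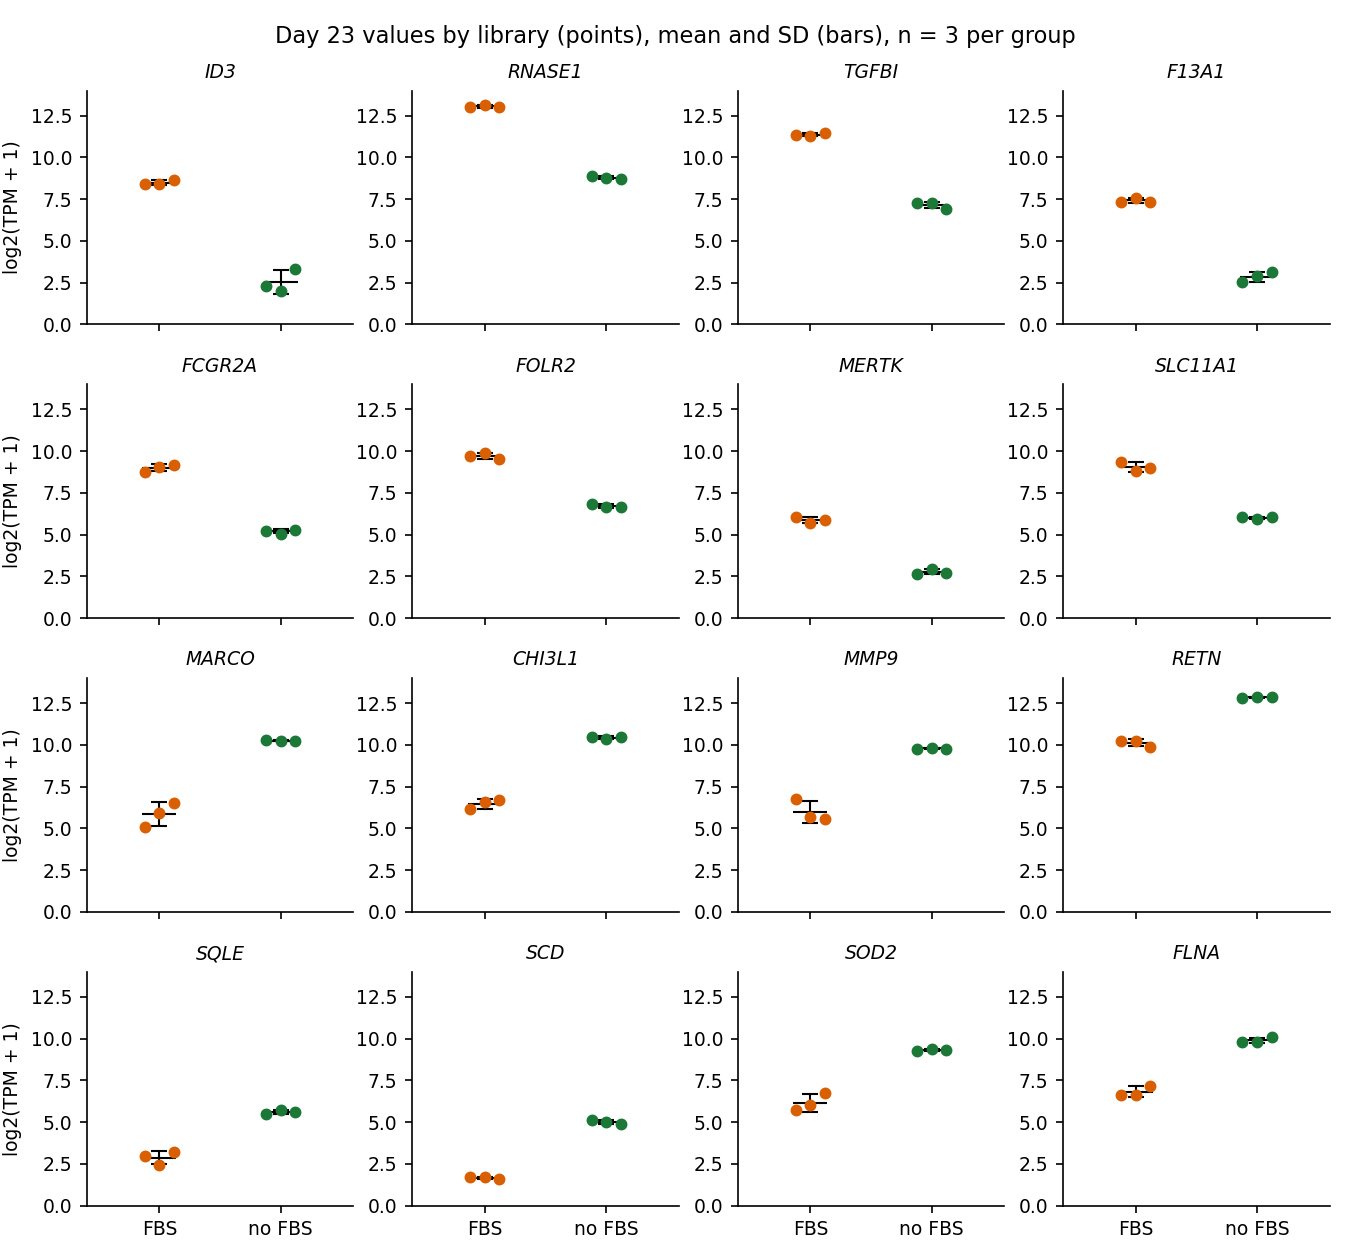
Values of log2(TPM + 1) at day 23 for 16 genes, with the 3 FBS libraries on the left of each panel and the 3 libraries without FBS on the right; points are libraries, and bars give the mean and SD. The groups do not overlap in any panel, from ID3 and RNASE1, which were higher with FBS, to SQLE and FLNA, which were lower. For ID3, RNASE1, TGFBI, F13A1 and MARCO this was a condition of their choice among the largest changes.

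Genes of tissue-resident and yolk-sac-type macrophages rose together with FBS. Of 25 members tested (27 listed), 19 rose and 3 fell, and their median change was 1.68 against 0.17 over all genes tested. FOLR2, the folate receptor of resident macrophages, had 829, 959 and 729 TPM with FBS and 112, 98.0 and 101 TPM without, a log2 change of 3.00 ± 0.13 (adjusted p = 4.19e-06). SELENOP, the selenium carrier selenoprotein P, had 128, 195 and 194 TPM with FBS and 12.9, 13.8 and 15.7 TPM without. LYVE1, a hyaluronan receptor, had 23.8, 35.8 and 28.2 TPM with FBS and 1.10, 3.75 and 1.45 TPM without. In each of these genes the lowest FBS library was several times the highest library without FBS. MRC1, the mannose receptor, changed by 2.67 ± 0.18, SIGLEC1, a sialic acid receptor, by 2.88 ± 0.24, VSIG4, a complement receptor, by 1.64 ± 0.10, and STAB1, the scavenger receptor stabilin 1, by 1.32 ± 0.10, all called higher. MAF, a transcription factor that holds macrophages in a differentiated state, had 57.3, 62.0 and 67.4 TPM with FBS and 23.4, 23.4 and 20.9 TPM without (adjusted p = 0.000922). The 3 members that fell were MARCO, C1QB and APOE, of which APOE (-0.62) was not called when FBS replicate 2, FBS replicate 3 or any 1 library without FBS was left out, and CD163 and C1QA were among those not called.

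The 3 chains of complement C1q, which are made as one complex, did not move alike. C1QC had 1422, 1464 and 1313 TPM with FBS and 485, 591 and 460 TPM without. C1QB had 164, 185 and 131 TPM with FBS and 399, 381 and 378 TPM without. C1QA had 1740, 1553 and 1507 TPM with FBS and 1458, 1452 and 1419 TPM without. C1QC rose and C1QB fell with no overlap between groups (changes of 1.46 and -1.28), while C1QA, at 0.15, did not pass the test. These 3 genes and other list members outside the naming rule were picked after their values were seen.

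Receptors for cargo and antibodies showed the same direction. Of 24 scavenger and phagocytic receptor genes tested, 16 rose and 3 fell (median 1.31). MERTK, a receptor kinase for the uptake of dying cells, had 65.6, 49.9 and 58.6 TPM with FBS and 5.36, 6.75 and 5.64 TPM without, a change of 3.09 ± 0.22 (adjusted p = 4.75e-05). Its bridging ligand GAS6 had 56.1, 40.6 and 38.6 TPM with FBS and 11.1, 9.83 and 5.38 TPM without, and the related receptor AXL had 9.99, 15.5 and 12.8 TPM with FBS and 1.77, 2.27 and 2.07 TPM without. Both were called higher and neither overlapped. The 3 that fell were MARCO, OLR1, a receptor for oxidised lipoprotein, and CLEC4E, a receptor for microbial glycolipids. Of 20 Fc and inhibitory receptor genes tested, 12 rose and 0 fell (median 0.78). The number higher was 10 under median-ratio scaling and 9 to 11 when 1 library was left out. FCGR2A, an activating IgG receptor, had 437, 526 and 582 TPM with FBS and 36.9, 32.5 and 37.8 TPM without, a change of 3.81 ± 0.15 (adjusted p = 2.31e-06). The signalling adaptors TYROBP and FCER1G rose by 1.15 ± 0.05 and 0.98 ± 0.07, at levels of 6694 to 7518 TPM and 5503 to 6431 TPM with FBS. FCGR2B, an inhibitory IgG receptor close in sequence to FCGR2A and FCGR2C, did not pass the test.

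**Figure D3:**
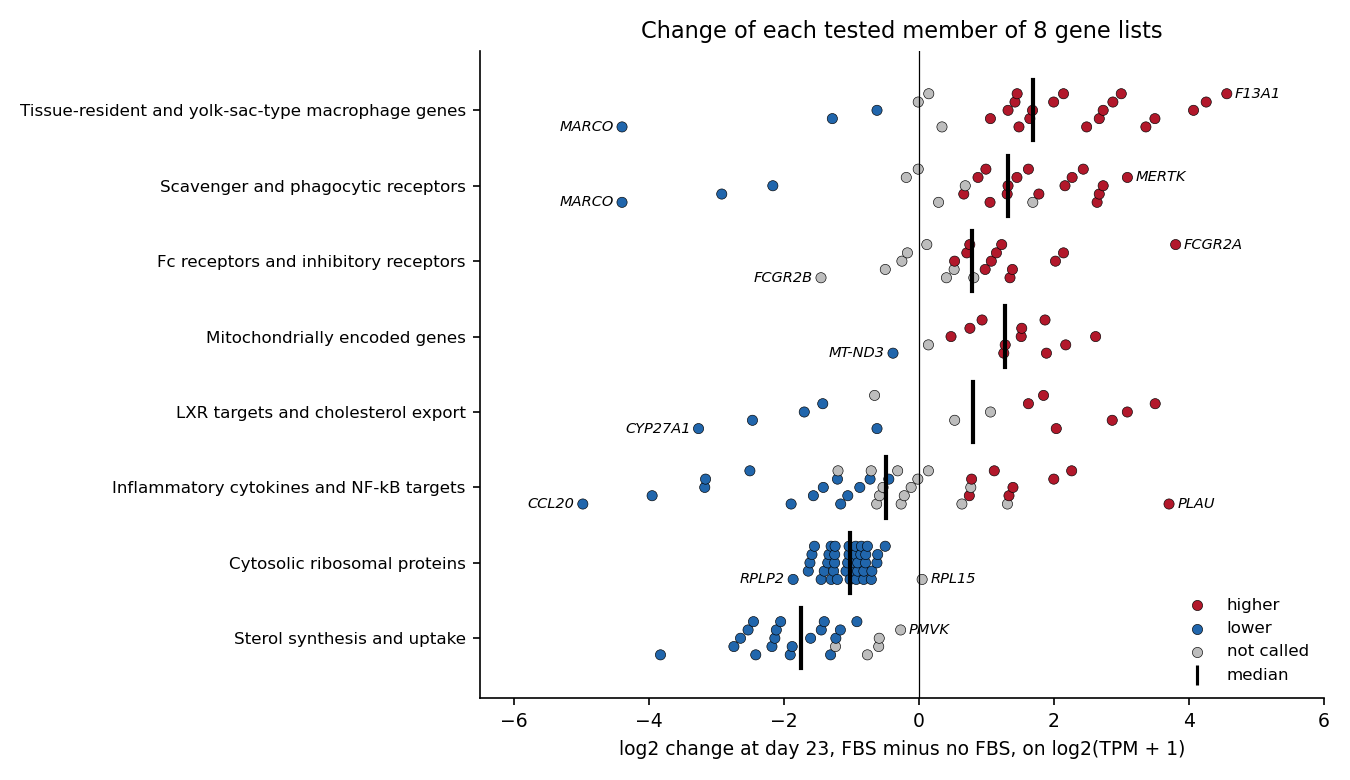
Log2 change at day 23 of each tested member of 8 gene lists (x axis); red points were called higher with FBS, blue points lower, grey points were not called, and the black bar is the list's median. The resident, scavenger and Fc receptor lists lie mostly to the right of 0, and the ribosomal protein and sterol lists to the left.

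Of 14 genes typical of blood monocytes that were tested, 4 rose and 5 fell. The number higher was 2 under median-ratio scaling and 2 or 3 when 1 library was left out. FCN1, a complement-activating lectin, had 0, 3.52 and 5.31 TPM with FBS and 110, 117 and 126 TPM without, a change of -5.28 ± 0.59 (adjusted p = 0.000549). CD52, a small surface glycoprotein, had 0, 11.1 and 3.73 TPM with FBS and 207, 131 and 94.2 TPM without. S100A9 and S100A8, the chains of calprotectin, fell by 1.16 and 1.03 on the log2 scale, S100A9 having 1779, 2112 and 1868 TPM with FBS and 4223, 4111 and 4489 TPM without. No library of one group reached into the other for these genes. The 4 that rose were THBS1 (4.17), described above, CLEC12A (1.415), FCGR3A (0.71) and CD14, and LYZ was not called (-0.015). CD14, the coreceptor for bacterial lipopolysaccharide, rose by 0.33 ± 0.07 (adjusted p = 0.0160), and was not called under median-ratio scaling or without replicate 1 or replicate 3 of the libraries without FBS.

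MARCO, a scavenger receptor for bacteria and particles (chromosome 2, 118942194 to 118994660), was lower with FBS, with 33.5, 59.1 and 90.6 TPM, against 1252, 1178 and 1208 TPM without. The libraries without FBS were tight, the FBS libraries spread more, and the groups were far apart (change of -4.40 ± 0.30, adjusted p = 3.27e-05). CHI3L1, a secreted chitinase-like protein, had 69.2, 94.6 and 101 TPM with FBS and 1444, 1286 and 1393 TPM without. MMP9, the gelatinase B that cuts matrix, had 106, 50.9 and 45.5 TPM with FBS and 863, 898 and 877 TPM without. CHIT1, the chitin-cutting enzyme chitotriosidase, had 1.71, 0 and 0 TPM with FBS and 28.4, 54.5 and 21.9 TPM without. These 3 genes fell by 3.96, 3.79 and 4.58 on the log2 scale with no overlap. In the list of matrix metalloproteinases and matrix turnover, 7 of 17 tested genes fell and 8 rose, the increases being in ADAM8, ADAM9, MMP1, MMP14, MMP19, TIMP2, SPARC and PLAUR. Of the increases, 4 were called under median-ratio scaling and 2 without FBS replicate 3, and the decreases numbered 7 and 6 in those settings.

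The largest decrease of all was in WFDC21P, a noncoding RNA, which had 0.91, 0 and 0 TPM with FBS and 482, 367 and 341 TPM without. ZP3, a gene named for an egg coat glycoprotein, CCL20, a chemokine for lymphocytes, and RAMP1, a receptor-modifying protein, were listed at 0 in all 3 FBS libraries and at 50.1 to 102, 25.7 to 35.2 and 15.7 to 36.2 TPM without FBS. IL32, a cytokine gene, had 0, 1.65 and 2.70 TPM with FBS and 63.1, 80.5 and 61.0 TPM without. The other genes among the 15 largest decreases were SLC2A6, a hexose transporter, NKG7, a granule protein of cytotoxic lymphocytes, the chemokine gene CCL1, CEACAM3, IER3-AS1 and RN7SL2. The last of these has near-identical copies, and IER3-AS1 overlaps its neighbour IER3, which rose by 1.33; SMART-seq2 does not mark strand, so reads of the pair cannot be told apart. Among abundant genes picked after their values were seen, RETN, the secreted protein resistin, had 1205, 1206 and 936 TPM with FBS and 7110, 7371 and 7470 TPM without. TMSB10, an actin-binding thymosin, had 2104, 2181 and 2317 TPM with FBS and 9552, 8247 and 8677 TPM without. S100A4 and LGALS1, which encode a calcium-binding protein and a galectin, fell by 1.45 and 0.91 on the log2 scale.

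Sterol synthesis fell as a block. Of 24 genes of sterol synthesis and uptake tested (25 listed), 0 rose and 19 fell, and the median change was -1.74. FDPS, which makes farnesyl diphosphate, had 41.4, 53.5 and 82.1 TPM with FBS and 358, 392 and 332 TPM without. SQLE, the squalene epoxidase, had 6.69, 4.46 and 8.33 TPM with FBS and 44.6, 51.5 and 48.0 TPM without, a change of -2.74 ± 0.26 (adjusted p = 0.000208). Both enzymes were lower in every FBS library than in any library without FBS. SREBF2, which encodes the transcription factor that drives these genes, fell by 2.13. The 5 not called were HMGCS1 (-1.24), TM7SF2 (-0.76), IDI1 (-0.60), MVD (-0.59) and PMVK (-0.27). Between 14 and 17 of the genes were called lower when 1 library was left out, and 22 under median-ratio scaling.

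Promoters of these genes are shown because SREBP factors bind a sterol element next to CCAAT boxes. The 250 bases before the annotated start were searched on both strands for the letters TCACNCCA, one form of the sterol element, and for CCAAT. Of 18 promoters of the tested sterol genes in the RefSeq table, 3 held the first motif (16.7%, against 3.2% of 34943 promoters) and 15 held CCAAT (83.3%, against 32.0%). The first motif was also in 2 of 18 promoters (11.1%) of the immediate early genes described further on. The 3 stretches that hold the first motif, each on the plus strand of GRCh38.p14 and written 5′ to 3′ with the match in capitals, follow.
SREBF2, chr22:41832952-41832999: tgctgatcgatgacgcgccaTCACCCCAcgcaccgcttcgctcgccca
MSMO1, chr4:165327493-165327540: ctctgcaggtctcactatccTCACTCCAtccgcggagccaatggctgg
MVK, chr12:109573579-109573626: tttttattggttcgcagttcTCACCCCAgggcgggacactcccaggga
MSMO1, a C4-methylsterol oxidase, had 11.4, 12.9 and 7.56 TPM with FBS and 65.2, 51.7 and 68.1 TPM without, and MVK, mevalonate kinase, fell by 2.11. A match is a run of letters and not a measured binding site.

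Fatty acid genes that share regulators with sterol synthesis fell in part. Of 10 tested, 5 fell and 1 rose. SCD, the desaturase that makes oleate, had 2.23, 2.28 and 2.01 TPM with FBS and 34.4, 31.3 and 28.9 TPM without, a change of -3.36 ± 0.25 (adjusted p = 5.76e-05). FADS1, a desaturase of polyunsaturated fatty acids, had 6.53, 9.37 and 9.63 TPM with FBS and 40.1, 39.7 and 41.7 TPM without. FASN, ACACA and FADS2 were the others that fell, and ME1, malic enzyme, was the one that rose. SREBF1, which encodes the partner factor of fatty acid synthesis, was not called (-0.34).

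LXR target genes did not move as a block. Of 14 tested, 6 rose and 5 fell. ABCA1, which exports cholesterol to apolipoprotein, had 12.2, 9.96 and 11.4 TPM with FBS and 3.35, 2.82 and 1.33 TPM without, a change of 1.85 ± 0.34 (adjusted p = 0.00724). ABCG1, a partner exporter, had 5.30, 9.97 and 7.91 TPM with FBS and was listed at 0 in all 3 libraries without. Both exporters were thus higher in every FBS library. APOC1, an apolipoprotein, had 54.4, 73.9 and 87.6 TPM with FBS and 353, 408 and 428 TPM without. CYP27A1, a sterol hydroxylase, had 7.25, 5.38 and 4.20 TPM with FBS and 52.6, 66.3 and 66.6 TPM without. APOE, PLTP and NR1H3, the gene of LXR alpha itself, were the others called lower (changes of -0.62, -1.70 and -1.43), and APOC2, another apolipoprotein gene, was not called (-0.66).

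Lipid storage and PPARG-related genes were divided too, with 7 of 19 higher and 5 lower. LPL, the lipase that frees fatty acids from lipoproteins, had 0.48, 1.96 and 0.96 TPM with FBS and 43.1, 24.6 and 28.9 TPM without. PDK4, a kinase that turns cells to fatty acid use, had 10.8, 21.4 and 12.2 TPM with FBS and 0, 0 and 0.60 TPM without. TREM2, a lipid receptor, had 674, 749 and 717 TPM with FBS and 221, 208 and 193 TPM without. The groups were apart for all 3. PLIN2, the coat protein of lipid droplets, and PPARG itself did not pass the test (changes of 0.34 and -0.65).

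Inflammatory genes moved in both directions. Of 36 cytokine genes and NF-kB targets tested, 8 rose and 14 fell, with a median of -0.49. SOD2, the mitochondrial superoxide dismutase induced by NF-kB, had 51.3, 63.2 and 107 TPM with FBS and 610, 675 and 645 TPM without, a change of -3.17 ± 0.24 (adjusted p = 5.69e-05). IL6, a cytokine, had 2.75, 2.79 and 1.80 TPM with FBS and 11.02, 24.4 and 22.8 TPM without. TNF, tumour necrosis factor, had 145, 140 and 177 TPM with FBS and 68.0, 71.7 and 70.3 TPM without. IL6 and TNF thus changed in opposite directions with no overlap (adjusted p of 0.00221 and 0.00119). CCL2, a chemokine for monocytes, had 4101, 5325 and 5172 TPM with FBS and 2866, 2840 and 2935 TPM without, a change of 0.75 ± 0.09. PLAU, the urokinase that cuts plasminogen, had 72.1, 93.9 and 85.9 TPM with FBS and 6.96, 4.85 and 4.81 TPM without. PTGS2, the inducible cyclooxygenase, had 22.96, 27.3 and 29.5 TPM with FBS and 4.59, 3.91 and 5.81 TPM without. IL1B and CXCL8 overlapped between groups and were not called, IL1B having 349, 449 and 538 TPM with FBS and 503, 439 and 485 TPM without. CCL4 fell by 1.21, but it and CCL3 have copies close in sequence, among which reads may be split.

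Chemoattractant receptors were mostly higher, with 6 of 10 called higher and 1 lower. GPR183, a receptor for oxysterols, had 60.1, 77.2 and 68.2 TPM with FBS and 8.99, 5.49 and 6.03 TPM without. CX3CR1, the fractalkine receptor, was the one that fell, with 0.57, 0.99 and 0.56 TPM with FBS and 8.42, 10.3 and 7.29 TPM without. The interferon response list had 4 of 26 genes higher and 2 lower, with a median of 0.07 that turned to -0.09 under median-ratio scaling. None of 6 HLA class II genes tested was called, and 6 more lay below the filter; CD74, their chaperone, had 96.6, 110 and 105 TPM with FBS and 141, 113 and 109 TPM without. In HLA class I, B2M rose by 1.16 and HLA-E by 1.15, and HLA-C and TAPBP fell by 0.80 and 0.53. TAPBP was not called when any 1 library was left out.

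Immediate early and serum response genes were called higher in 6 of 23 and lower in 3. ZFP36, which speeds the decay of cytokine messages, had 160, 188 and 202 TPM with FBS and 15.2, 26.8 and 19.6 TPM without, a change of 3.13 ± 0.22 (adjusted p = 4.19e-05). EGR1, a zinc finger transcription factor, had 85.9, 81.4 and 70.0 TPM with FBS and 15.8, 11.5 and 15.2 TPM without, a change of 2.41 ± 0.20. FOS and DUSP6, an AP-1 subunit and a phosphatase that shuts off ERK, rose by 1.31 and 1.58. FOSB, a second AP-1 subunit, ran the other way, with 3.28, 6.57 and 8.06 TPM with FBS and 22.2, 15.9 and 26.1 TPM without (adjusted p = 0.0106), and JUN and JUND fell too, by 1.05 and 1.01. JUN was not called when any 1 library was left out, and JUND was called only without FBS replicate 3 or without replicate 2 of the libraries lacking FBS.

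Actin cytoskeleton genes, many of them targets of serum response factor and its actin-sensing partner, were called lower in 10 of 23 and higher in 2. FLNA, the actin cross-linker filamin A, had 96.5, 98.9 and 145 TPM with FBS and 894, 891 and 1081 TPM without, a change of -3.08 ± 0.17 (adjusted p = 1.40e-05). ACTB, beta actin, had 3527, 3737 and 3689 TPM with FBS and 6664, 6398 and 7032 TPM without. ACTG1, gamma actin, had 799, 839 and 910 TPM with FBS and 1491, 1293 and 1374 TPM without. The groups were apart in all 3. TLN1 and ZYX, which tie actin to integrins, were the 2 called higher, and neither was called under median-ratio scaling, where 12 of 24 genes were lower. ZYX was not called when any 1 library was left out, and TLN1 was called without FBS replicate 3 or replicate 3 of the libraries lacking FBS. ITGB2, the integrin beta chain of leukocytes, fell with 850, 920 and 874 TPM with FBS and 2235, 2175 and 2185 TPM without, although 3 of 20 integrin and adhesion genes rose and 4 fell.

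Serum response factor binds the CArG box, which was therefore searched in the 250 bases before the start of both groups of genes. It was in 2 of 18 promoters of the immediate early list, 4 of 20 of the actin list and 1.16% of all promoters in the table. The actin promoters were those of ACTG1, FLNA, CNN2 and TPM4, and the immediate early ones those of EGR1 and of SRF, the gene of the factor itself. SRF, CNN2 and TPM4 were not called (changes of -0.46, 0.24 and 0.09). Stretches around the boxes of the 3 genes that were called are written 5′ to 3′ on the gene's own strand with the boxes in capitals.
EGR1, chr5:138465354-138465425, plus strand: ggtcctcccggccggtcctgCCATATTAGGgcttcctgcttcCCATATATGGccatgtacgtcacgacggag
ACTG1, chr17:81512864-81512913, minus strand: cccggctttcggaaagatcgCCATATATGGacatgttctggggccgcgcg
FLNA, chrX:154374699-154374748, minus strand: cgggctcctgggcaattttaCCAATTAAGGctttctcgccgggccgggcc
The same CArG sequence is thus found before EGR1, which was higher with FBS, and before ACTG1, which was lower. The box of FLNA overlaps a CCAAT motif.

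Of 12 TGF-beta and SMAD target genes tested, 5 rose and 1 fell (median 1.21). Besides TGFBI and THBS1 these were TGFBR2, a receptor of the pathway, with 37.1, 43.0 and 41.9 TPM with FBS and 6.99, 8.38 and 12.0 TPM without, TGM2, a transglutaminase, and SMAD6, an inhibitor of BMP signals, which was not called without FBS replicate 1, FBS replicate 2, or replicate 2 or 3 of the libraries lacking FBS. FN1, fibronectin, was the one that fell, with 4.43, 0.26 and 0 TPM with FBS and 13.8, 18.5 and 14.5 TPM without. Among growth factor genes, 5 of 11 rose and 1 fell. CSF1R, the receptor that macrophages need to live, had 284, 304 and 299 TPM with FBS and 114, 107 and 94.6 TPM without, a change of 1.49 ± 0.12 (adjusted p = 9.32e-05), and HBEGF, a ligand of the EGF receptor, rose by 2.74.

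Cell cycle genes showed few calls at day 23. Of 41 genes of G2/M and mitosis tested, 0 rose and 3 fell, and of 35 S phase genes 1 rose and 1 fell. The median change was -0.82 for G2/M and -0.34 for S phase, against 0.17 over all genes tested. Under median-ratio scaling 7 G2/M and 5 S phase genes were lower and 0 higher. MKI67, the proliferation antigen, had 0.85, 6.63 and 1.83 TPM with FBS and 10.4, 9.15 and 15.2 TPM without (adjusted p = 0.0404). FBS replicate 2 was the highest of its group for MKI67, TOP2A and UBE2C, and TOP2A at 18.5, 63.6 and 6.76 TPM overlapped the 69.6, 53.1 and 66.8 TPM without FBS. The summed level of the G2/M list was 253.7 to 500.8 TPM with FBS and 517.3 to 609.9 TPM without. With FBS replicate 2 left out, 9 of 40 genes of this list were called lower, and with another library left out 1 or 2 were. MKI67 was called in 1 of these 6 settings, without FBS replicate 2. In the self-renewal list 4 of 11 rose (ID3, ID1, ID2 and MAF) and 1 fell, SOX4; MYC, KLF2 and KLF4 were not called, MYC having 13.1, 10.9 and 17.8 TPM with FBS and 8.0, 5.74 and 6.39 TPM without.

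Ribosomal protein genes were the most uniform group. Of 41 tested, 0 rose and 40 fell, with a median of -1.02 and -1.20 under median-ratio scaling. RPLP2, a protein of the ribosomal stalk, had 733, 705 and 717 TPM with FBS and 2816, 2478 and 2567 TPM without, a change of -1.86 ± 0.07 (adjusted p = 2.31e-06). RPS19, of the small subunit, had 1848, 1892 and 1740 TPM with FBS and 4539, 4134 and 4347 TPM without. RPL15 was the one not called, with 1042, 1082 and 1047 TPM with FBS and 1083, 1037 and 952 TPM without. Ribosomal protein genes have many processed copies, so reads may be split among them. Ribosome biogenesis had 6 of 28 genes lower and 0 higher, with 9 lower under median-ratio scaling and 3 to 5 when 1 library was left out. FBL, the methyltransferase fibrillarin, fell by 1.69.

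Of 13 mitochondrially encoded genes, 11 rose and 1 fell, with a median of 1.28, and 10 rose under median-ratio scaling. MT-ND6, the complex I subunit read from the other strand, had 3831, 4238 and 4114 TPM with FBS and 1060, 1139 and 1084 TPM without, a change of 1.89 ± 0.06 (adjusted p = 2.20e-06). Strand is not marked in these libraries, so reads of MT-ND6 cannot be told from reads of transcripts of the opposite strand. MT-ND3 was the one that fell, with 5784, 5750 and 5481 TPM with FBS and 7593, 7232 and 7384 TPM without. Of 32 nuclear respiratory chain genes, 1 rose and 9 fell, with a median of -0.24, and the other 22 were not called. COX8A, a cytochrome oxidase subunit, had 1087, 1092 and 1193 TPM with FBS and 1942, 1866 and 1945 TPM without. Copies of mitochondrial genes in the nucleus can share reads with them, and the mitochondrial share of a library also moves with RNA quality; its part in the result was not tested.

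Lysosomal genes leaned upward, with 13 of 33 higher and 4 lower. CTSB, cathepsin B, had 2513, 2594 and 2427 TPM with FBS and 1183, 1190 and 1236 TPM without. TPP1, a lysosomal peptidase, had 309, 328 and 315 TPM with FBS and 112, 102 and 106 TPM without. With either FBS replicate 2 or FBS replicate 3 left out, 8 genes of this list were called higher. In iron handling, 6 of 13 rose and 1 fell. FTL, the ferritin light chain and the most abundant named gene, had 106790, 110619 and 107265 TPM with FBS and 69152, 67893 and 67528 TPM without, and FTH1, the heavy chain, rose by 0.58 ± 0.05. SLC11A1, a metal pump of the phagosome, had 650, 441 and 516 TPM with FBS and 65.1, 60.8 and 65.2 TPM without. HMOX1, heme oxygenase 1, had 286, 285 and 347 TPM with FBS and 110, 87.3 and 86.5 TPM without. All 4 genes were higher in every FBS library.

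Folding and stress genes changed in part. Of 28 genes of the unfolded protein and amino acid response, 11 rose and 3 fell, and 6 rose under median-ratio scaling or without FBS replicate 2; XBP1, the transcription factor of the response, had 70.0, 96.7 and 85.5 TPM with FBS and 27.3, 25.5 and 33.0 TPM without. Glycolysis had 3 of 21 genes higher and 5 lower, and 2 to 4 were lower when 1 library was left out. ENO1, enolase, had 392, 466 and 374 TPM with FBS and 815, 740 and 748 TPM without, while GAPDH rose by 0.39 ± 0.08 and was not called under median-ratio scaling. The heat shock chaperone list had 3 genes higher and 2 lower of 15, the hypoxia list 4 and 1 of 15, the list of p53 and apoptosis 4 and 3 of 23, and the metallothionein and zinc list 1 and 1 of 11. Myeloid transcription factors rose in 5 of 17 and fell in 2, CEBPA, IRF8 and RUNX3 being among those that rose.

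**Figure D4:**
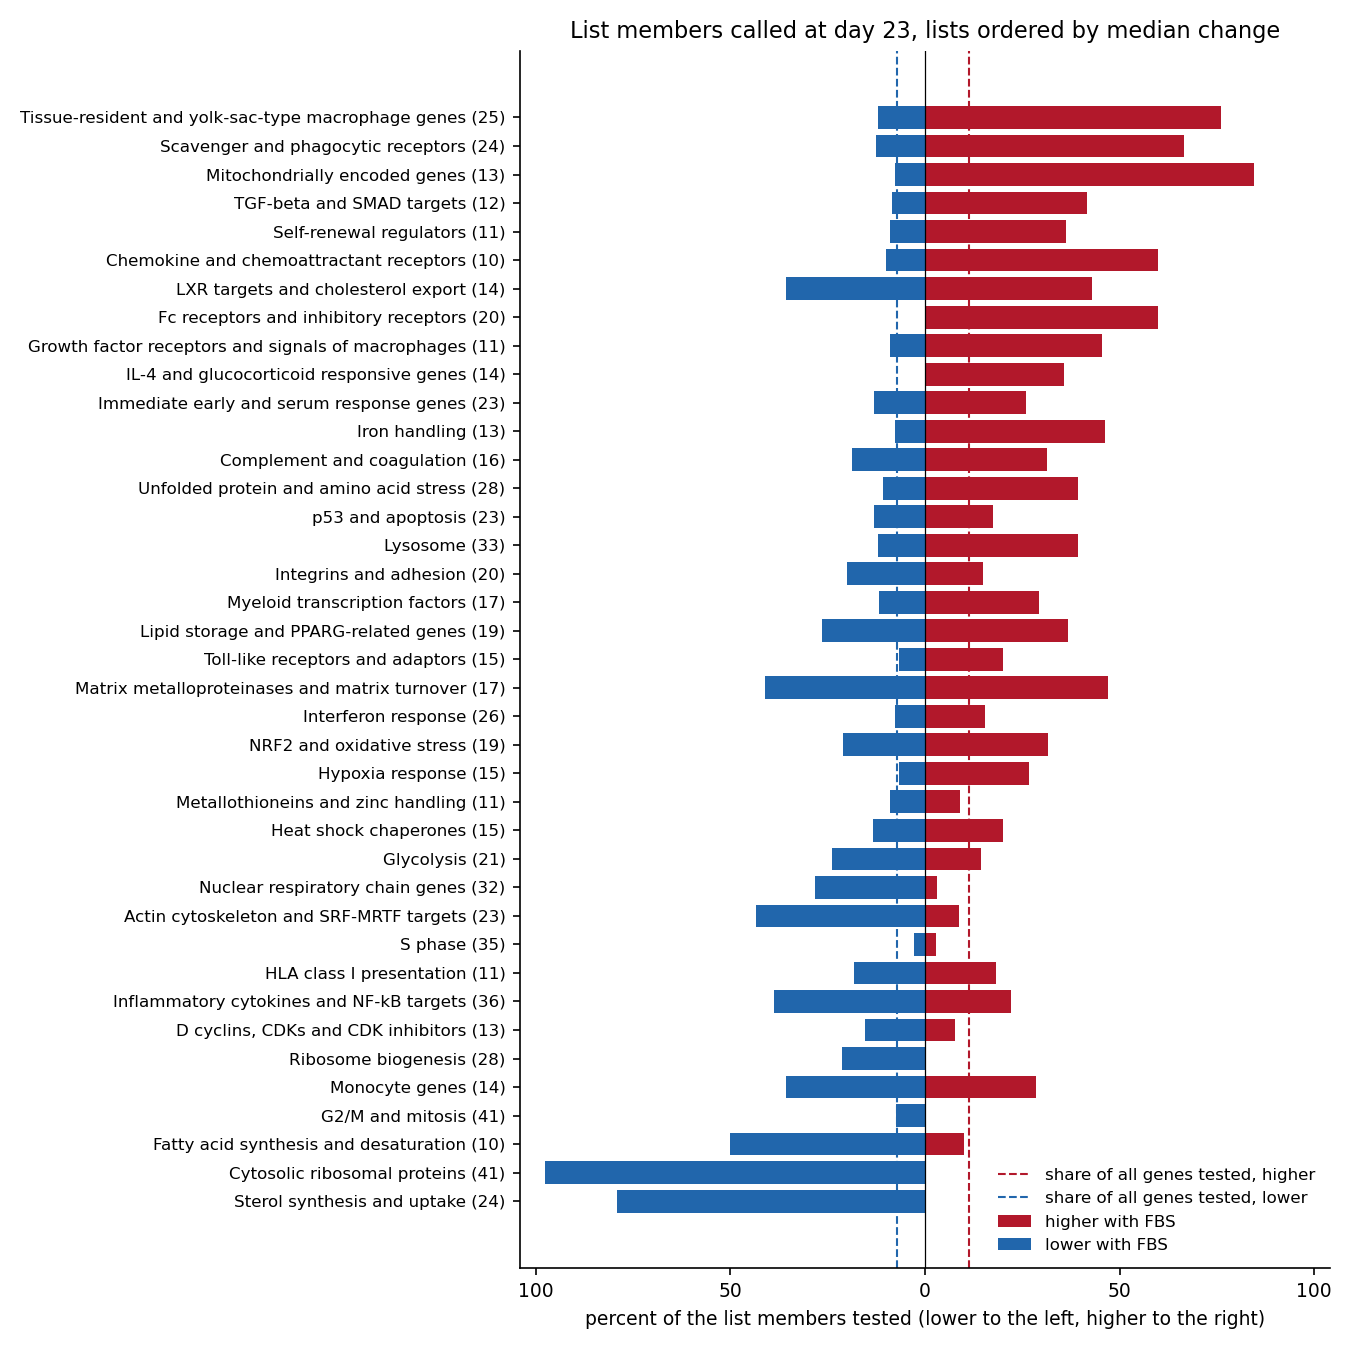
Share of tested members called higher (red, to the right) and lower (blue, to the left) with FBS at day 23, for each pathway list with 10 or more genes tested (number in brackets), ordered by median change. Dashed lines mark the 11.2% and 7.22% of all genes tested; the ribosomal protein and sterol lists at the bottom reach 40 of 41 and 19 of 24 genes lower.

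Lists of markers of other cell types were read for genes that moved with FBS. Most members lay below the filter for megakaryocyte (9 of 12), erythroid (12 of 14), granulocyte (11 of 12), lymphoid (12 of 14), blood progenitor (9 of 10), fibroblast (11 of 12) and pluripotent cells (9 of 10), and HBA1, HBB, CD3E, ALB, CD34 and POU5F1 were at 0 in all 6 libraries. Of 5 tested genes of the list of mast cells, basophils and eosinophils, 1 rose and 2 fell, and with 1 library left out 0 to 2 were lower. HPGDS, a prostaglandin D synthase of mast cells that macrophages also make, was the one that rose, with 45.4, 48.4 and 47.5 TPM with FBS and 16.4, 8.89 and 11.2 TPM without. HDC, the histidine decarboxylase that makes histamine, and PRG2, an eosinophil granule protein, were the 2 that fell (adjusted p of 0.0473 and 0.0183), and CLC was not called (adjusted p = 0.0573). The summed level of this list was 45.4 to 96.0 TPM with FBS and 90.09 to 126.1 TPM without. The endothelial list had 9 of 12 members below the filter, and TEK, EMCN and ROBO4 were at 0 in all 6 libraries. Of its 3 tested genes, 2 were higher, CDH5, a cadherin, and EGFL7. Its summed level was 104.7 to 146.2 TPM with FBS and 32.14 to 46.89 TPM without, and rested largely on EGFL7. EGFL7, an endothelial secreted protein, had 115, 103 and 66.2 TPM with FBS and 16.4, 30.5 and 26.6 TPM without. In the lymphoid list IL7R, a cytokine receptor chain, rose by 3.00 and NKG7 fell by 4.33, and the summed level was 32.54 to 40.0 TPM with FBS and 155.4 to 179.6 TPM without. The neural list had 2 of 4 tested genes lower, NES and NCAM1, at a summed level of 3.53 to 6.54 TPM with FBS and 18.42 to 22.28 TPM without. In the hepatic list the 1 gene tested fell, SERPINA1, an antiprotease of liver and monocytes, which had 16.4, 39.4 and 36.7 TPM with FBS and 179, 180 and 190 TPM without. The osteoclast list, which holds MMP9, had 3 of 9 genes higher and 3 lower, among them ACP5, a phosphatase, with 257, 244 and 212 TPM with FBS and 55.3, 65.2 and 30.7 TPM without, and DCSTAMP, a fusion protein, which fell by 2.20. The part of other cells in these values was not tested.

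The FBS contrast was also made at days 16 and 19. One fit over the 18 libraries of the 3 days tested 13290 genes. At day 16, 10.4% of genes were called higher and 13.2% lower with FBS, and at day 19 the shares were 16% higher and 15.4% lower. In this fit 1633 genes were higher at day 23, of which 425 (26.0%) were also higher at day 16 and 214 (13.1%) were lower there; the 425 were 30.7% of the genes higher at day 16. Of the 880 genes lower at day 23, 325 (36.9%, and 18.6% of those lower at day 16) were also lower at day 16 and 72 (8.2%) were higher there. For day 19 the shared genes were 600 of the higher (36.7%, and 28.2% of those at day 19) and 414 of the lower (47.0% and 20.2%), and 203 (12.4%) and 76 (8.6%) were called in the opposite direction at day 19. The FBS effect at day 23 minus that at day 16 was called positive in 10.8% of genes and negative in 5.35%, and minus that at day 19 in 10.8% and 6.92%. Both differences use the day 23 libraries, so they are not independent of each other.

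Sterol synthesis was lower with FBS at each of the 3 days. At day 16, 19 of 24 genes were lower and 0 higher, and at day 19, 22 were lower and 0 higher. SQLE had 2.52, 8.10 and 5.75 TPM with FBS and 25.6, 35.3 and 30.9 TPM without at day 16, and 5.86, 3.74 and 5.99 TPM with FBS and 54.5, 49.4 and 49.3 TPM without at day 19. At both days every FBS library lay below every library without FBS. The difference between days was called in 4 of the 24 genes against day 16 and in 2 against day 19. RNASE1 was higher with FBS at every day too, with 6612, 8097 and 7964 TPM with FBS and 1735, 1642 and 1762 TPM without at day 16. Its change at day 23 exceeded that at day 16 by 2.12 ± 0.12 (adjusted p = 6.82e-09), the level without FBS being lower at day 23.

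IL1B, an inflammatory cytokine, had 26.97, 29.0 and 22.6 TPM with FBS and 577, 450 and 650 TPM without at day 16, and 39.8, 20.8 and 41.7 TPM with FBS and 366, 267 and 237 TPM without at day 19. It was far lower with FBS at both days, whereas at day 23 the groups overlapped, and the effect at day 23 exceeded that at day 16 by 4.24 ± 0.34 (adjusted p = 2.39e-07). CCL2 had 575, 667 and 481 TPM with FBS and 3416, 3761 and 4503 TPM without at day 16, so that it fell with FBS at day 16 and rose at day 23. TREM2 had 180, 200 and 252 TPM with FBS and 632, 712 and 774 TPM without at day 16, again the other way round from day 23. LYVE1 had 41.2, 62.4 and 38.1 TPM with FBS and 129, 114 and 148 TPM without at day 16, and at day 19 its groups overlapped. VSIG4 and C1QC, higher with FBS at day 23, were also lower in every FBS library at day 16. VSIG4 had 435, 524 and 474 TPM with FBS and 731, 725 and 827 TPM without at that day. For CCL2, TREM2 and LYVE1 the effect at day 23 exceeded that at day 16 by 3.51 ± 0.21, 3.53 ± 0.20 and 4.83 ± 0.42. SPP1, the secreted protein osteopontin, was lower in every FBS library than in any library without FBS at each day, with 80.9, 59.3 and 168 TPM with FBS and 9194, 6383 and 5403 TPM without at day 19, and 5380, 7619 and 7271 TPM with FBS and 11679, 9896 and 10207 TPM without at day 23. At day 23 it was called in the fit of 6 libraries (change of -0.66, adjusted p = 0.00739) and not in the fit over 18 (adjusted p = 0.162). The decrease of SPP1 was thus smaller at day 23 than at day 19, the effects differing by 5.52 ± 0.44 (adjusted p = 3.19e-07).

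FOSB had 65.5, 72.9 and 58.2 TPM with FBS and 7.10, 8.26 and 5.80 TPM without at day 16, and 212, 238 and 211 TPM with FBS and 1.02, 2.17 and 4.05 TPM without at day 19. It rose with FBS at both days and fell at day 23, a difference of -7.84 ± 0.46 against day 19 (adjusted p = 1.07e-08). Of 23 immediate early genes, 19 were higher with FBS at day 19, and the effect at day 23 was below that at day 19 in 9 and above it in 1. MRNIP, a gene of DNA repair, had 94.8, 62.2 and 56.4 TPM with FBS and 9.5, 8.78 and 9.24 TPM without at day 16, but 12.6, 15.1 and 39.6 TPM with FBS and 214, 175 and 247 TPM without at day 23. WFDC21P stood at 0 to 8.15 TPM with FBS and 1.26 to 4.47 TPM without at day 16, so its high level without FBS was found at day 23 and not at day 16. RPLP2 had 1261, 904 and 999 TPM with FBS and 959, 1072 and 816 TPM without at day 16, where the groups overlapped. In 35 of 41 ribosomal protein genes the effect at day 23 was below that at day 16, and in 20 it was below that at day 19.

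Glycolysis genes were lower with FBS in 13 of 21 at day 16 and 12 at day 19, and the effect at day 23 was above that at day 16 in 11 genes and above that at day 19 in 11. ENO1 had 137, 167 and 173 TPM with FBS and 1125, 1006 and 1199 TPM without at day 16, a wider gap than at day 23. Nuclear respiratory chain genes were lower in 24 of 32 at day 16 and 26 at day 19. S phase genes were lower with FBS in 15 of 39 at day 16 and 20 at day 19, and higher in 0. Genes of G2/M and mitosis were higher in 4 of 43 and lower in 2 at day 16, and lower in 17 and higher in 0 at day 19. Heat shock chaperones had 10 of 15 genes with a day 23 effect above that of day 16, and the unfolded protein list 15 of 28. Of 20 Fc and inhibitory receptor genes, 8 were lower with FBS at day 16 and 7 higher, and 13 had a day 23 effect above that of day 16. FCER1G had 2209, 2448 and 2376 TPM with FBS and 4020, 4068 and 4562 TPM without at day 16, the reverse of its order at day 23. Under median-ratio scaling the day 23 effect was above that of day 16 in 1090 genes and below in 1010, against 1440 and 711 as deposited.

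**Figure D5:**
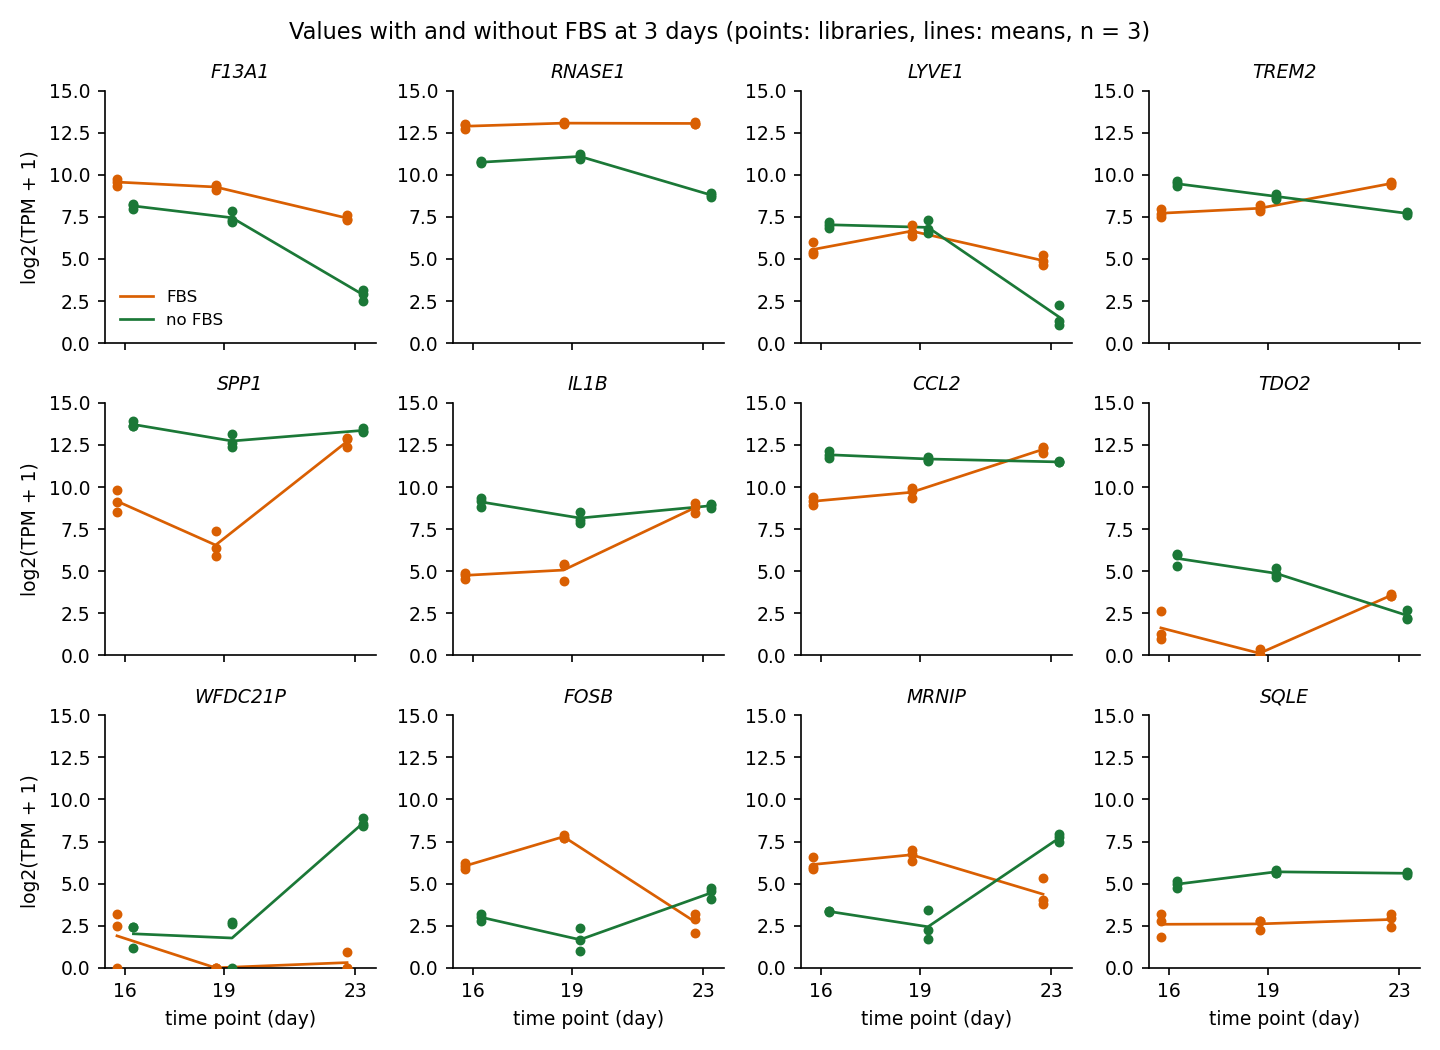
Values of log2(TPM + 1) by time point (day 16, 19 and 23) with FBS and without it; points are libraries and lines join the means of 3. SQLE stays lower with FBS at each day, while other panels show effects that differ in size or direction between days.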

How the data were processed

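Bulk RNA from H1-derived macrophages was read from 1 deposited table of 58735 genes, with 32 bulk columns matched to samples by title. The authors deposited TPM values, which scale each library to one fixed total of transcripts; per the labels' protocols, polyadenylated RNA was extracted with TRIzol and made into libraries by SMART-seq2. Per the submitters' processing notes, tools named for the series include Trim Galore 0.4.4, HISAT2 and HTSeq 0.11.1, with no role given. No source used here gives read totals, so depth is unknown and no counting interval is given. TPM is not a count, so limma 3.58.1 in R 4.3.3, with a trended prior, was fitted to log2(TPM + 1), which understates the change of low genes. The test took genes averaging 1 TPM or more across the 6 libraries, with Benjamini-Hochberg adjustment over all of them and a threshold of 0.05. Differences between days came from 1 fit over 18 libraries. Simulated data for the day 23 comparison had 12886 genes, of which 200 were changed. Calls were made for 43% of genes given a log2 change of 2 and for 11% given a log2 change of 1.

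Genes were named by a rule: the 15 largest increases and 15 largest decreases among called genes that reached 10 TPM in either group and did not overlap, the 4 members of smallest adjusted p in each of 56 gene lists, a fixed set, and up to 6 genes per direction for each difference between days. The comparison and the lists were chosen with earlier results of these data known. Abundant genes and further list members named in the text were chosen after their values were seen. Some genes that the rule names are not reported here. Symbols and coordinates came from RefSeq GRCh38.p14, which matched 36226 of the genes. Alternatives were other pseudocounts, filters, scalings, priors, array weights, larger fits, a block by replicate number, and leaving out each library.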

Additional observations from a re-analysis of the deposited data

Results flagged for a closer look

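The effect of FBS at day 23 differed from that at an earlier day in 12 genes reported above, by the test of the difference itself in the fit over 18 libraries (limma, adjusted p under 0.05). Against day 16, the day 23 effect was higher by 4.83 on the log2 scale for LYVE1, 4.24 for IL1B, 3.53 for TREM2, 3.51 for CCL2, 2.12 for RNASE1, 1.89 for ENO1 and 1.83 for FCER1G. Against the same day it was lower for WFDC21P (-8.18), MRNIP (-6.14) and RPLP2 (-2.01). Against day 19 it was higher by 5.52 for SPP1 and lower for FOSB (-7.84). For ENO1 and SPP1 a higher effect means a smaller decrease with FBS at day 23. For IL1B it means a decrease at day 16 and no call at day 23. These genes were picked for the size of their difference or after their values were seen, and the 10 differences against day 16 share the day 23 libraries with the 2 against day 19.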

How the results depend on the processing

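Of 154 genes reported as called at day 23, 118 stayed called with the same sign under every alternative run. Of the same 154, 36 lost the call under at least 1, and 0 reversed. CLEC12A and FCGR3A are not counted among the 154. Leaving out each library gave 781 to 1079 genes higher and 647 to 734 lower at day 23, 884 higher without FBS replicate 2 and 781 without FBS replicate 3, and 23 reported genes lost the call in at least 1 of these settings. Besides those named with their libraries above, they were ADAM8, MMP1, MMP14, MMP19, SPARC, PLAUR, IER3-AS1, RN7SL2, ACACA, FADS2, UBE2C, HDC, PRG2 and NCAM1. Among gene lists, these settings gave 3 to 5 growth factor genes, 2 to 4 hypoxia genes, 1 to 3 heat shock chaperones, 2 to 4 genes of p53 and apoptosis and 3 to 5 myeloid transcription factors higher, and 3 to 5 fatty acid genes, 3 or 4 lipid storage genes, 2 to 4 lysosomal genes, 1 or 2 immediate early genes and 1 to 3 genes of the unfolded protein list lower. The same settings gave 7 to 9 actin genes, 6 to 8 nuclear respiratory chain genes and 11 to 13 cytokine genes and NF-kB targets lower. Under median-ratio scaling 9 lysosomal genes were higher. Without a trended prior 578 genes were lower. In the fit over all 28 three-dimensional libraries the day 23 effect was below that at day 16 in 469 genes. S100A8 and DCSTAMP were not called at day 23 in that fit or in the fit over 18 libraries. With 1 library left out, the day 23 effect was above that at day 16 in 1071 to 1408 genes and below in 554 to 650, and above that at day 19 in 1047 to 1533 and below in 744 to 945. Median-ratio scaling ended 8 of the calls (CD14, ADAM8, MMP14, SPARC, PLAUR, TLN1, ZYX and GAPDH), and gave 1185 genes above and 1240 below for the difference from day 19. At day 19 the 3 clone-named entries took on average 28.4% of TPM with FBS and 18.1% without. Rescaling without them and the mitochondrial genes gave 1230 genes above and 1108 below for the difference from day 19, against 1439 and 920 as deposited. Deviations of same-numbered libraries correlated at -0.0014, -0.0016 and -0.0141, so no large shift shared by replicate number was seen. Whether same-numbered libraries share a culture is not stated, and these correlations cannot decide it. The fit with a replicate block called 1067 genes higher and 779 lower. The cause of these changes was not tested. With 3 libraries a group and unknown depth, changes of 1 on the log2 scale were seldom called in the simulation. The simulation changed 200 of 12886 genes, while 1446 were called higher and 930 lower in the data, so its shares need not hold there.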
